A study of Mus musculus with 12 samples.

Results

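The genes of telomerase and of the telomere cap were described in HSCs of WT and Pon2-/- mice. The 10 genes are Tert, Dkc1, Nop10, Nhp2, Terf1, Terf2, Tinf2, Pot1a, Acd and Rtel1, named by symbol from the role of their proteins, of 49585 genes counted in every sample. Telomerase is a reverse transcriptase that adds telomere repeats to chromosome ends. Its catalytic subunit TERT copies the RNA template Terc, and the RNA is held by a box H/ACA core of dyskerin (Dkc1), NOP10, NHP2 and GAR1, which also serves the small RNAs that guide pseudouridylation. Shelterin, with TRF1 (Terf1), TRF2 (Terf2), TIN2 (Tinf2), TPP1 (Acd) and POT1, covers telomere DNA, and the helicase RTEL1 opens telomere loops and other DNA structures during replication. In hematopoiesis, telomerase activity is low and found mainly in stem and progenitor cells, and inherited defects of its components in humans lead to bone marrow failure.

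RNA-seq was performed on HSCs from the bone marrow of 6 WT and 6 Pon2-/- C57BL/6J mice aged 10 to 14 weeks. WT animals were obtained from a breeder, and Pon2-/- mice carry a gene trap vector with β-geo between loxP sites in the second intron of Pon2. No treatment is named for either group. Cells were sorted as Lin-, Sca1+, ckit+, CD135- and CD150+, which the study describes as LT-HSCs mixed with MPP2, with 10 cells per well and 8 wells per mouse, so that each sample stands for 80 cells of 1 mouse. The labels do not state whether mice of the same genotype were littermates. As WT animals came from a breeder, the genotype and the origin of the mice cannot be told apart. In these small pools, fewer cells that express a gene and less RNA of it per cell cannot be told apart.

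Libraries held 12967791 to 24228280 counts (WT) and 14671353 to 23122382 counts (Pon2-/-). Values are given in CPM, which are counts per 1000000 counts of the library after TMM scaling, and a count of 0 allows up to 3 counts, or 0.121 to 0.235 CPM depending on the sample. These limits cover counting error only. Pon2, the targeted gene, had 56.4 to 202 CPM in WT HSCs (median 105) and 1.16 to 33.1 CPM in Pon2-/- HSCs (median 29.9), without overlap of the genotypes (exact permutation test, p = 0.00216), though edgeR's adjusted p for it was 0.586. All 11 HSC and sort markers were counted, and their sum was 2493 to 3025 CPM for WT and 2501 to 3055 CPM for Pon2-/- samples. The sum of 6 T cell genes was 0.0424 to 39.7 CPM for WT and 18.8 to 57.7 CPM for Pon2-/- samples, with Cd3e and Cd8a at 0 in every sample and Lck counted in 11 of 12. That of 8 B cell genes was 25.5 to 319 CPM for WT and 58.8 to 742 CPM for Pon2-/- samples. For 8 neutrophil and monocyte genes it was 315 to 8139 CPM for WT and 302 to 12534 CPM for Pon2-/- samples. The part of such cells in the values given here was not tested.

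Among the 10 genes, Tert was set apart by its counts. The core protein genes Nop10, Nhp2 and Dkc1 had at least 1414 counts in every sample, and the 5 shelterin genes had at least 54. Tert had 889 counts in all WT samples together and 0 in all Pon2-/- samples. Rtel1 stood between, with 0 to 975 counts per sample.

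**Figure D1:**
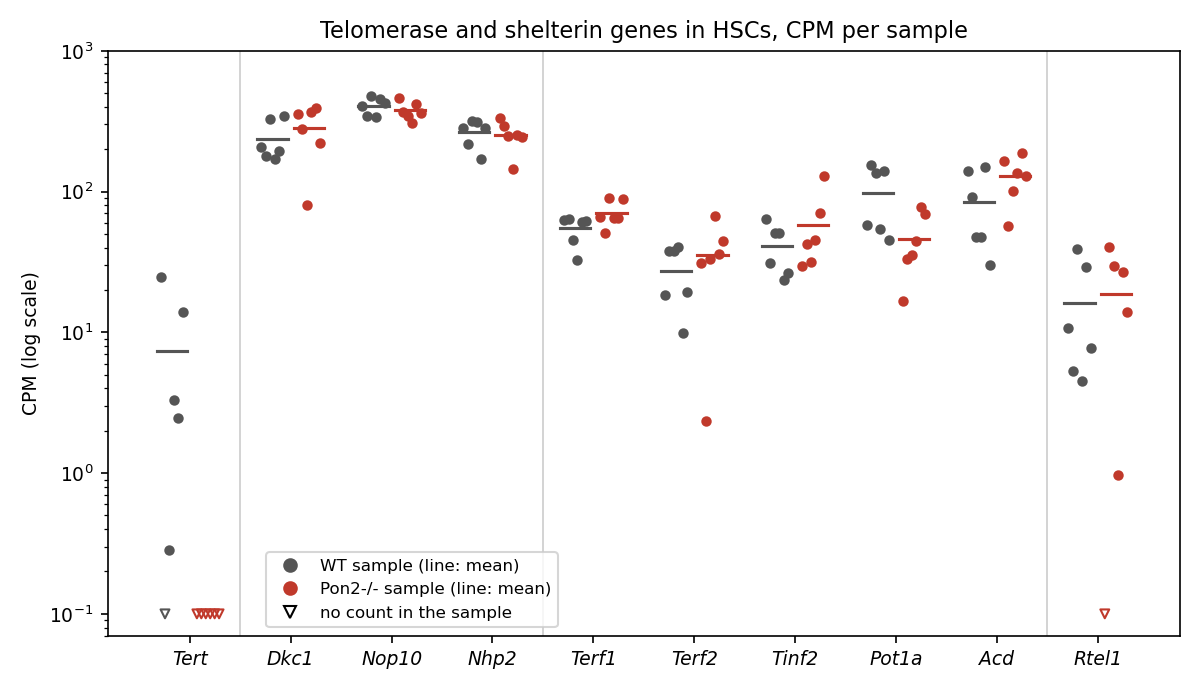
CPM (log scale) of the 10 genes in each of 6 WT (grey) and 6 Pon2-/- (red) samples; horizontal lines are group means, open triangles mark samples without a count, and vertical lines separate Tert, the H/ACA core, shelterin and Rtel1. Tert ranges from no count to 24.6 CPM in WT and has no count in Pon2-/-, whereas Nop10 lies between 309 and 475 CPM in all samples.

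The sequences before the start sites of Tert, of Nop10 as the member with the smallest spread and of Nhp2, another member with stable counts, are shown to set the sporadic gene beside its stable partners. Each run is the 250 bases before the RefSeq start site on GRCm38.p6, 5′ to 3′ on the plus strand, at chr13:73626661-73626910 for Tert, chr2:112261676-112261925 for Nop10 and chr11:51619523-51619772 for Nhp2. Capitals mark the GC box GGGCGG, the core of Sp1 and Sp3 binding, or its reverse complement CCGCCC.
Tert: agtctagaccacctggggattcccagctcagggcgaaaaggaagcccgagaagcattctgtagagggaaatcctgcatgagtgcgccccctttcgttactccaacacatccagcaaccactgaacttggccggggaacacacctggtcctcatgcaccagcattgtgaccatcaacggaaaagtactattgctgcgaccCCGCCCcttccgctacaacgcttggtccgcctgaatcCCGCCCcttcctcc
Nop10: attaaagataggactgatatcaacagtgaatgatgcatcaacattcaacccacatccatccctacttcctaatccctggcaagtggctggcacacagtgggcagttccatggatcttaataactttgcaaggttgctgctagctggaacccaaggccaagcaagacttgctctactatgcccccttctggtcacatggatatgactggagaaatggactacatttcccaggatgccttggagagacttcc
Nhp2: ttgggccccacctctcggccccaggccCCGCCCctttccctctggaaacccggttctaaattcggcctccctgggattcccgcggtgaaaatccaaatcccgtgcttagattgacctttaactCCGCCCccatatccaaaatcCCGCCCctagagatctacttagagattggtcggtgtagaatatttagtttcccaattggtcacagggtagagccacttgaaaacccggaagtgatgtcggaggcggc
Tert held 2 GC boxes, which begin at positions -51 and -14 from the start site. Nhp2 held 3, at positions -223, -127 and -107, and Nop10 held none. Over windows of 300 bases, from 250 before to 50 after the start site, 9 of the 10 genes had an entry and Terf1 had none. The GC box was found on either strand in 5 of these 9 (Tert, Nhp2, Terf2, Pot1a and Rtel1), compared with 35.7% of 32851 promoter windows of the genome. The ETS core CCGGAA was found in 5 of 9 (Nhp2, Tinf2, Pot1a, Acd and Rtel1), compared with 14.9% of all windows. The E-box CACGTG, the element bound by MYC and MAX, was found in none of 9 and in 7.15% of all windows. Each motif was searched on both strands, and matches were counted separately where motifs overlapped. The windows of the genome hold 1 entry per gene and start site, whether or not the gene was counted here. Each of the 9 genes was taken once. GC content was 48.0% to 60.7% in the windows of the 9 genes, with a median of 52.7% over all windows. The shares were not adjusted for GC content, so they do not show an excess of a motif in these genes. Among the 3 H/ACA core genes, Nhp2 held a GC box and Dkc1 and Nop10 held none.

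Tert (ENSMUSG00000021611.8), which encodes the catalytic subunit, lies on the plus strand of chromosome 13 from 73626911 to 73649843. In the order of replicate numbers, WT samples had 580, 0, 7, 42, 34 and 226 counts, which correspond to 24.6, 0, 0.282, 3.29, 2.47 and 13.9 CPM. Replicates 1 and 6 thus held most Tert counts, and replicate 1 alone held 65.2% of them. All 6 Pon2-/- samples were at 0, as was WT replicate 2, so that the genotypes overlap at this value. WT replicate 2 had a larger library (19149531 counts) than WT replicate 4, which had 12967791 counts and 42 of Tert.

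Tert was detected in 5 of 6 WT and 0 of 6 Pon2-/- samples (Fisher's exact test over samples, two-sided, p = 0.0152). With a minimum of 10 counts it was detected in 4 of 6 and 0 of 6 (Fisher's exact test, p = 0.0606). The difference in mean log2 CPM (prior count 2), Pon2-/- minus WT, was -4.37 (two-sided exact permutation test over 924 assignments, p = 0.0152). Since Tert was named by the study from these samples, these p-values describe the samples and are not independent evidence. A count of 0 in the Pon2-/- group was taken as at most 3 counts (0.0272 CPM), against which the pooled WT level of 8.07 CPM was at least 296-fold higher, and at least 131-fold without WT replicate 1. These bounds cover the counting error of pooled reads only. They leave out the spread between mice and so do not bound the difference between genotypes. Tert had too few samples with counts for the filter of the edgeR fit and was not tested in it. With every gene that had a read, edgeR gave an adjusted p of 0.281, whereas DESeq2 gave 9.82e-05.

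Genes with a pattern like that of Tert occurred in either direction. Of 11917 genes with a count in at least 5 WT samples, 26 or 0.218% had none in Pon2-/- HSCs, and Tert is 1 of them. In reverse, 21 of 11714 genes with a count in at least 5 Pon2-/- samples had none in WT HSCs. Exactly 5 WT and 0 Pon2-/- samples were positive for 17 genes, and exactly 5 Pon2-/- and 0 WT samples for 10 genes.

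The spread of Tert between WT samples was set beside that of all genes of a like mean, within a factor of 2 in CPM. Its mean was 7.42 ± 9.85 CPM (SD, n = 6), a coefficient of variation of 132.7%. Of 2967 genes of like mean, 62.6% had a WT sample at 0, the median coefficient was 107% and 71.7% had a smaller one. A WT sample without counts was found for most genes at this level. For Rtel1, 30.7% of 3812 genes of like mean had a WT sample at 0, while Rtel1 itself had counts in all WT samples.

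**Figure D2:**
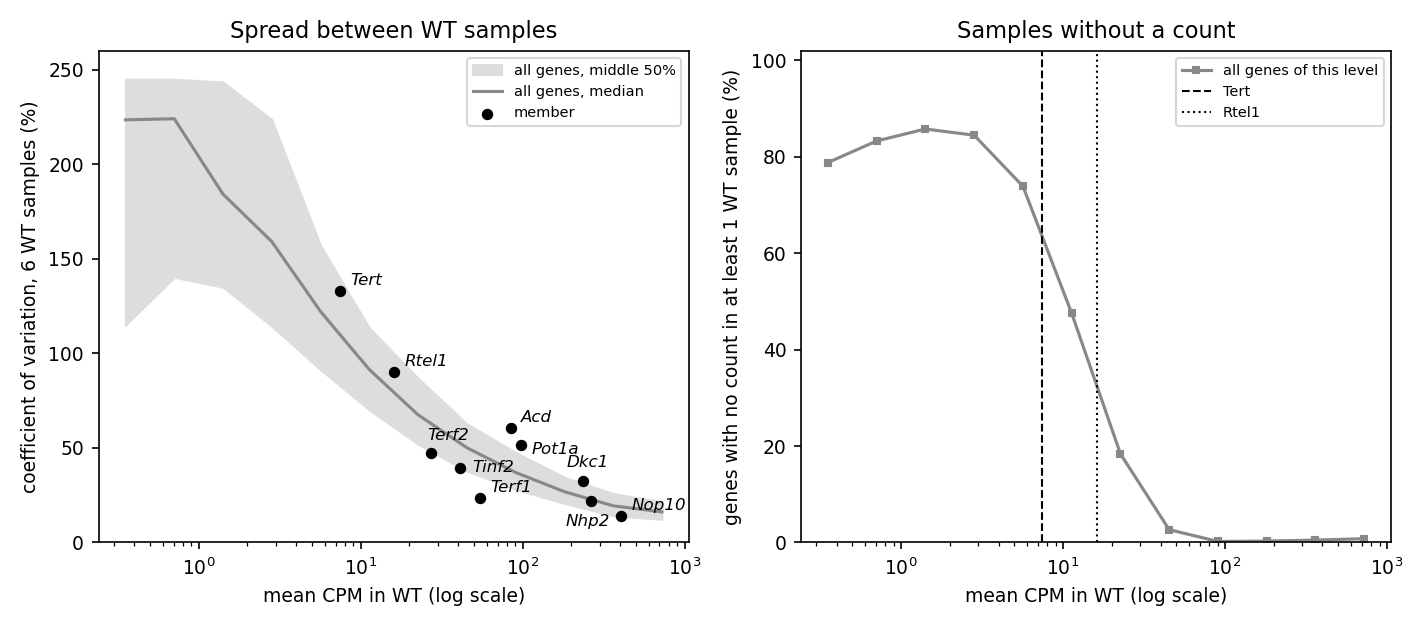
Left, coefficient of variation over 6 WT samples (%) against mean CPM in WT (log scale), with the median and the middle 50% of all genes in 12 bins of level (grey) and the 10 genes as black points. Right, share of genes with no count in at least 1 WT sample (%) against mean CPM, with vertical lines at Tert and Rtel1; Tert, at 132.7%, lies inside the grey band, and Terf1, at 23.4%, lies below it.

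Tert lies between Clptm1l and Slc6a18. Of 9 other genes within 200 kb, 3 had more than 2 counts in any sample. Clptm1l, 6306 bases away, had counts in all 12 samples, with 22.4 to 66.5 CPM in WT HSCs (median 42.4) and 37.3 to 106 CPM in Pon2-/- HSCs (median 87.9). Clptm1l had 33.0, 53.7, 51.7, 66.5, 31.1 and 22.4 CPM in WT replicates 1 to 6. Its level in the 2 WT samples with the most Tert, replicates 1 and 6, was below that of every sample without Tert counts. Among WT samples it was highest in replicate 4, which had 42 Tert counts. Its log2 fold change was 0.82 (SE 0.36, edgeR unadjusted p = 0.0372, adjusted p = 1.0). Slc12a7, a potassium chloride cotransporter, ranged from 0 to 1726 counts in WT and from 12 to 1475 in Pon2-/- HSCs, with 0 in WT replicate 1, where Tert was highest. Lpcat1, a lysophospholipid acyltransferase, had 92 to 2037 counts in WT and 79 to 677 in Pon2-/- HSCs, and its highest value was also in WT replicate 1. The other 6 (Slc6a3, Slc6a18, Slc6a19, Slc6a19os, Nkd2 and Gm8062) had at most 2 counts per sample.

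**Figure D3:**
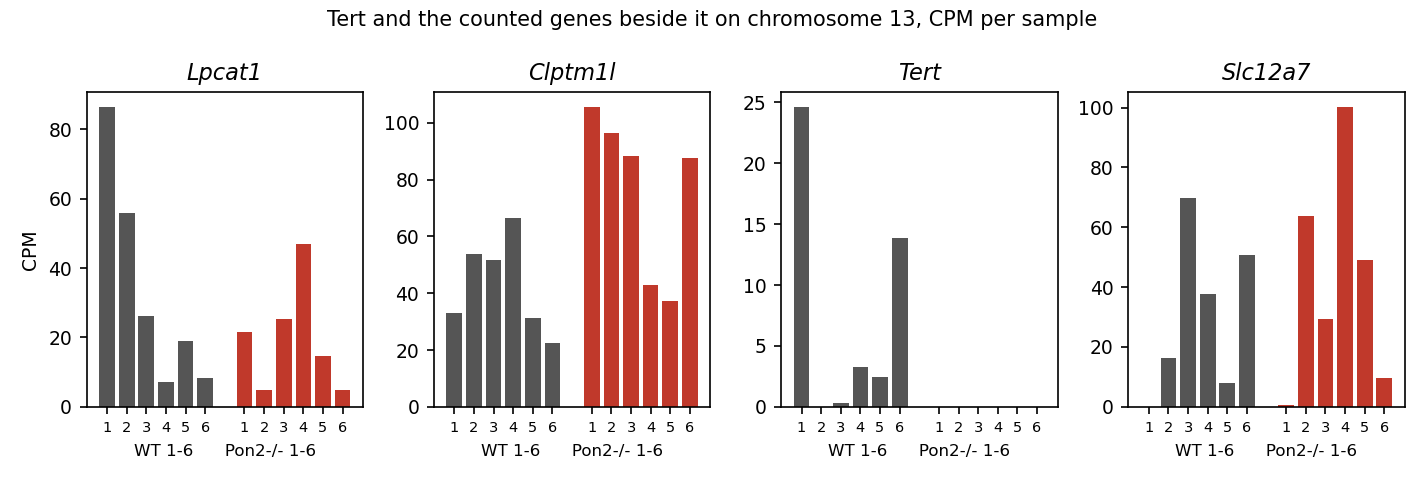
CPM per sample of Tert and the 3 genes within 200 kb of it that had more than 2 counts in any sample, each on its own axis from 0, with WT replicates 1 to 6 in grey and Pon2-/- replicates 1 to 6 in red. Clptm1l is counted in all 12 samples, Tert in 5 WT samples only, and Slc12a7 is at 0 in WT replicate 1.

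Over 12 samples, the log2 CPM of Ppp1r3e (Pearson r = 0.96), Ephb4 (0.92) and Rps13 (0.87) were most like that of Tert among 13198 genes with counts. These are descriptions over libraries in which Tert, Ppp1r3e and Ephb4 share 0 or nearly 0 counts in Pon2-/- HSCs. Ppp1r3e had 327, 1, 0, 159, 19 and 220 counts in WT and none in Pon2-/- HSCs, so that its WT order differs from that of Tert at replicates 2 and 3. Ephb4 had 239, 0, 0, 21, 211 and 67 counts in WT and 1 count in all Pon2-/- samples together. Rps13, a ribosomal protein gene, had 5321 to 10431 counts in WT and 4418 to 6731 in Pon2-/- samples, before scaling to the library. With Tert at 0 in every Pon2-/- sample, r over 12 samples takes in any difference between genotypes, for Rps13 too. The summed level of 8 neutrophil and monocyte markers was 468, 8139, 4578, 7658, 2006 and 315 CPM in WT replicates 1 to 6 and 302 to 12534 CPM in Pon2-/- HSCs. It was lowest in the 2 WT samples with the most Tert. That of 14 cell division markers was 3331, 2439, 3112, 2893, 2323 and 2982 CPM in WT replicates 1 to 6. Pon2-/- HSCs had 2466 to 3853 CPM of the cell division markers. The part of either marker group in the Tert counts was not tested. Pon2-/- replicate 5, at 302 CPM of neutrophil and monocyte markers and 3853 CPM of cell division markers, had no Tert count.

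The 3 genes of the box H/ACA core had the highest levels of the 10 and were counted in every sample of both genotypes. None of them passed the thresholds of FDR below 0.05 and absolute log2 fold change above 1. Nop10 varied least, by 13.7% of its mean in WT and 14.4% in Pon2-/- HSCs.

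Nop10 (ENSMUSG00000027133.3; chromosome 2, 112261926 to 112263269, plus strand), the smallest core protein, had 404, 344, 475, 339, 452 and 424 CPM in WT HSCs. The Pon2-/- samples had 462, 369.7, 343, 309, 415 and 362 CPM. The ranges overlap over most of their length, and the means were 406 ± 55.8 and 377 ± 54.2 CPM (SD, n = 6 each). Nop10 had a log2 fold change of -0.11 (95% interval -0.40 to 0.19), the narrowest interval among the genes tested here.

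Nhp2 (ENSMUSG00000001056.3; chromosome 11, 51619735 to 51623714, plus strand), which binds the upper stem of H/ACA RNA, had 284, 218, 315, 313, 169 and 284 CPM in WT HSCs. Pon2-/- replicates 1 to 6 had 331, 291, 247, 144, 254 and 242 CPM. Both groups thus held 1 low sample, WT replicate 5 and Pon2-/- replicate 4. edgeR gave a log2 fold change of -0.07 (95% interval -0.52 to 0.39).

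Dkc1 (ENSMUSG00000031403.14; chromosome X, 75095854 to 75109777, plus strand), the pseudouridine synthase of the core, had 207, 179, 327, 171, 194 and 341 CPM in WT HSCs. Pon2-/- HSCs had 355, 279, 80.4, 367, 393 and 219 CPM. Pon2-/- replicate 3 was lowest of all 12 samples, while 5 of 6 Pon2-/- samples were above the WT median, and the groups overlap. The coefficient of variation was 32.4% in WT and 41.7% in Pon2-/- HSCs, and 72.6% and 90.5% of genes of like mean varied less. The log2 fold change was 0.25 (95% interval -0.47 to 0.97).

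Levels of the core genes were not shown to move together across samples. Over 12 samples, Pearson's r of log2 CPM was 0.40 for Dkc1 and Nop10 (permutation p = 0.204), 0.05 for Dkc1 and Nhp2 (permutation p = 0.871) and 0.41 for Nop10 and Nhp2 (permutation p = 0.192). Spearman's rho was 0.37 (permutation p = 0.235), 0.14 (permutation p = 0.668) and 0.48 (permutation p = 0.122), in the same order. Adjusted over the 3 pairs (Benjamini-Hochberg), the smallest permutation p was 0.306 for r and 0.352 for rho. Without the 2 samples farthest from the median, r was 0.26, 0.06 and -0.06. Within WT and Pon2-/- HSCs, r was 0.70 and 0.35 for Dkc1 and Nop10, 0.41 and -0.08 for Dkc1 and Nhp2, and -0.10 and 0.82 for Nop10 and Nhp2, and the difference between genotypes was not tested.

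Shelterin genes lay at lower levels and were counted in all 12 samples. Pot1a alone had an unadjusted p below 0.05, with a lower level in Pon2-/- HSCs, and did not pass after adjustment. Terf1 was steady, whereas Pot1a, Terf2, Tinf2 and Acd varied several-fold within a genotype. Of genes of like mean, 79.7%, 27.0%, 26.6% and 87.6% varied less in WT HSCs, in this order. In Pon2-/- HSCs the shares were 48.1%, 52.6%, 79.6% and 55.8%.

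Pot1a (ENSMUSG00000029676.15; chromosome 6, 25743737 to 25809246, minus strand), which encodes 1 of the 2 mouse POT1 proteins that bind the single-stranded telomere end, had 58.3, 155, 136, 54.3, 141 and 45.5 CPM in WT HSCs. Levels in Pon2-/- samples were 16.7, 33.2, 35.3, 44.8, 77.4 and 69.5 CPM. WT replicates 2, 3 and 5 lay above every Pon2-/- sample, all 6 Pon2-/- samples lay below the WT median, and the other WT samples fell inside the Pon2-/- range. Mean levels were 98.3 ± 50.5 CPM (WT) and 46.2 ± 23.1 CPM (Pon2-/-; SD over 6 samples). Pot1a had a log2 fold change of -1.09 (SE 0.43, 95% interval -2.04 to -0.14), with an unadjusted p of 0.0231 and an adjusted p of 1.0 (edgeR). The exact permutation test of the difference in mean log2 CPM, which was -1.08, gave p = 0.0455. This p rose above the threshold, to at most 0.0952, when any of WT replicates 2, 3 and 5 or Pon2-/- replicates 1, 2, 3 and 4 was left out. Pon2, the targeted gene, lies on the same chromosome, from 5264147 to 5298455. Whether sequence linked to the targeted locus has a part in the Pot1a difference was not tested.

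Terf1 (ENSMUSG00000025925.14; chromosome 1, 15805646 to 15844052, plus strand), whose protein binds double-stranded telomere repeats, had 62.4, 64.2, 45.4, 32.6, 61.2 and 62.1 CPM in WT HSCs. The Pon2-/- samples had 65.9, 50.6, 90.6, 65.4, 65.1 and 87.9 CPM. All Pon2-/- samples but replicate 2 were above every WT sample. The coefficient of variation was 23.4% in WT and 21.7% in Pon2-/- HSCs, and 7.42% and 7.90% of genes of like mean varied less. Its log2 fold change was 0.38 (95% interval -0.19 to 0.95), with p = 0.0779 in the exact permutation test. Without Pon2-/- replicate 2, this exact p was 0.00866, and without any other single sample p was 0.0779 to 0.158.

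Terf2 (ENSMUSG00000031921.17; chromosome 8, 107069400 to 107096547, minus strand), whose protein protects ends from being joined, had 18.5, 37.9, 37.9, 40.5, 9.94 and 19.3 CPM in WT HSCs. Pon2-/- replicates 1 to 6 had 31.1, 2.33, 33.3, 67.2, 35.9 and 44.3 CPM. Pon2-/- replicate 2, with 54 counts, was the lowest and Pon2-/- replicate 4 the highest of all samples. edgeR gave a log2 fold change of 0.38 (95% interval -1.01 to 1.77).

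Tinf2 (ENSMUSG00000007589.8; chromosome 14, 55674689 to 55681820, minus strand), which links TRF1 and TRF2 to TPP1, had 63.4, 31.2, 50.9, 50.6, 23.7 and 26.4 CPM in WT HSCs. Pon2-/- HSCs had 29.8, 42.5, 31.4, 45.5, 70.1 and 128 CPM. Only Pon2-/- replicates 5 and 6 were above all WT samples. The log2 fold change was 0.50 (95% interval -0.44 to 1.44). Of its exon bases, 31.2% are shared with Gmpr2 on the opposite strand.

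Acd (ENSMUSG00000038000.10; chromosome 8, 105695860 to 105701102, minus strand), whose protein TPP1 recruits telomerase, had 141, 91.8, 47.5, 47.6, 149 and 29.9 CPM in WT HSCs. Levels in Pon2-/- samples were 166, 57.3, 101, 136, 188 and 128 CPM. WT samples fell into 3 low and 3 higher values, and 5 of 6 Pon2-/- samples were above the WT median. Its log2 fold change was 0.62 (95% interval -0.28 to 1.52). Of its exon bases, 33.3% are shared with Carmil2 on the opposite strand, and reads of such stretches cannot be assigned to either gene without strand information. The shared part is 3.84% for Nhp2 (with Rmnd5b) and 1.09% for Dkc1 (with Mpp1).

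Rtel1 (ENSMUSG00000038685.18; chromosome 2, 181319739 to 181356616, plus strand) had 10.7, 5.33, 39.3, 4.54, 29.3 and 7.80 CPM in WT HSCs. The Pon2-/- samples had 0, 40.3, 29.6, 0.971, 27.0 and 13.9 CPM. Pon2-/- replicate 1 had no count, which allows up to 0.179 CPM, and high and low samples occurred in both genotypes. edgeR gave a log2 fold change of 0.20 (95% interval -2.36 to 2.77), while the mean log2 CPM differed by -0.93 (exact permutation test, p = 0.584), so that its direction depended on the measure.

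In the comparison of the genotypes, 9 of the 10 genes passed the filter, which Tert did not. None of these 9 was called, compared with 24 of 11848 tested genes or 0.203% (edgeR's quasi-likelihood test, FDR below 0.05 and absolute log2 fold change above 1). An unadjusted p below 0.05 was found for 1 of the 9, Pot1a, and for 371 or 3.13% of all tested genes. Groups that did not overlap were found for none of the 9 and for 75 or 0.633% of all tested genes. The log2 fold change was above 0 for 6 genes and below 0 for 3, with a median of 0.25 (0.23 with Tert at its bound), compared with -0.01 over all tested genes. The adjusted p was 1.0 for each of the 9. The biological coefficient of variation over all genes was 99.2%, and the intervals of Terf2, Tinf2, Acd and Rtel1 include a 2-fold higher level in Pon2-/- HSCs, those of Terf2 and Rtel1 also a 2-fold lower one.

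**Figure D4:**
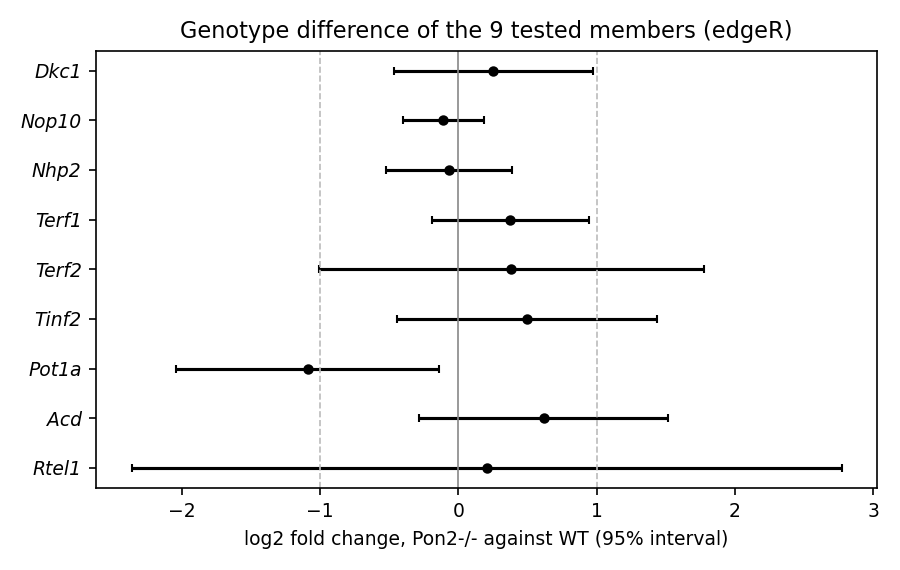
Log2 fold change of Pon2-/- against WT HSCs (edgeR, 6 samples per genotype) for the 9 genes tested, with bars as 95% intervals, a solid line at 0 and dashed lines at 1 and -1. Pot1a at -1.09 is the only interval that leaves out 0, before adjustment over all genes, and Rtel1 has the widest.

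Per length, the H/ACA core genes ranked first, shelterin genes next, and Rtel1 and Tert last. Per kilobase of annotated exon, WT HSCs had 366 ± 50.3 CPM of Nop10, 230.2 ± 50.7 of Nhp2 and 57.4 ± 18.6 of Dkc1 (SD, n = 6). Nop10 was above Nhp2 and Nhp2 above Dkc1 in all 12 samples. Acd followed with 23.3 ± 14.1 CPM per kilobase, below Dkc1 in 11 of 12 samples. Terf1 (11.9 ± 2.78), Pot1a (11.3 ± 5.82), Tinf2 (8.31 ± 3.27) and Terf2 (5.95 ± 2.83 CPM per kilobase) came next. Terf1 and Pot1a, and Pot1a and Tinf2, did not differ beyond their spread in WT HSCs. The former was above the latter in 3 of 6 WT samples for each pair. Tinf2 was above Terf2 in 5 of 6 WT samples but in 3 of 6 Pon2-/- samples. Rtel1 (2.44 ± 2.20) and Tert (1.30 ± 1.72 CPM per kilobase) came last, and Rtel1 was above Tert in 4 of 6 WT samples. In Pon2-/- HSCs, Pot1a stood at 5.32 CPM per kilobase, below Tinf2 in all 6 samples. With the length of the longest transcript in place of all exons, Pot1a had 30.0 CPM per kilobase in WT HSCs and took the fourth place, above Acd. The exon lengths of Tinf2 and Acd include the stretches shared with genes on the opposite strand (31.2% and 33.3%). Whether their places depend on these stretches was not tested.

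Other genes of telomere biology were looked at in lists. Of 52 genes, 48 were tested and 0 were called with edgeR (1 had an unadjusted p below 0.05, and DESeq2 also called 0). The 11 genes of the telomerase RNP and its assembly gave 10 tested genes, of which 7 had a log2 fold change above 0 and 3 below, with a median of 0.20 and none with an unadjusted p below 0.05. Terc, the RNA template, had 11 counts in WT replicate 2 and 68 in Pon2-/- replicate 1 and none in the other samples. Smart-seq2 primes on poly(A) tails, which mature Terc lacks.

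The helicases Ruvbl1 and Ruvbl2, which assemble the core, averaged 157 ± 50.7 and 226 ± 65.5 CPM (WT) and 162 ± 48.2 and 232 ± 84.1 CPM (Pon2-/-; SD over 6 samples). Gar1, the fourth core protein, had 68 to 454 counts in WT samples and 156 to 901 in Pon2-/- samples. The assembly factors Shq1 (log2 fold change 0.75, SE 0.56) and Naf1 (0.39, SE 1.17), the telomerase chaperone Wrap53 (0.35, SE 0.61) and Pinx1 (0.62, SE 1.24), which inhibits telomerase, had adjusted p of 1.0 in edgeR. Naf1 and Pinx1 each had 1 Pon2-/- sample at 0, and their differences in mean log2 CPM were -0.01 and -0.32, so that their direction depended on the measure. Parn (-0.15) and Zcchc8 (-0.32), which act on Terc maturation, and Tep1 (-0.03), a telomerase-associated protein, were below 0 on the log2 scale, also with adjusted p of 1.0 in edgeR.

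The 2 further shelterin genes, Pot1b and Terf2ip, had log2 fold changes of -0.80 (SE 1.03) and -0.15 (SE 0.82). Terf2ip, which encodes RAP1, the partner of TRF2, had 649 to 1894 counts in WT HSCs and 30, 1708, 1817, 17, 2106 and 333 in Pon2-/- HSCs. The Pon2-/- samples thus lay both below and above the WT range. Pot1b had 17 to 271 counts in WT and 4 to 296 in Pon2-/- HSCs, and the transcript of Pot1a aligned to it with 75.9% identity.

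Of 7 genes of the CST complex and lagging strand synthesis, 3 had a log2 fold change above 0 and 4 below, with a median of -0.15. Stn1, a CST subunit, had 1 sample of each genotype at 0. Of 19 genes of telomere replication and protection, 18 were tested, 10 above and 8 below 0, with a median of 0.05. The helicase gene Pif1 was sporadic like Tert, but in both genotypes, with counts in 3 of 6 WT and 3 of 6 Pon2-/- samples.

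Of 13 genes for transcription factors described as acting on the Tert promoter, 11 were tested, 9 above and 2 below 0, with a median of 0.24. Sp3, a GC box factor, had 60.0 to 95.9 CPM in WT HSCs (median 75.3) and 74.5 to 159 CPM in Pon2-/- HSCs (median 121), and the genotypes overlap. Its log2 fold change was 0.64 (SE 0.21), with an unadjusted p of 0.0100 and an adjusted p of 1.0 (edgeR). The related Sp1 had a log2 fold change of -0.80 (SE 0.43, adjusted p = 1.0 in edgeR). Gabpa had the highest log2 fold change of the list, 0.90 (SE 0.58, edgeR unadjusted p = 0.143). All 6 Pon2-/- samples lay above its WT median, and the genotypes overlap (exact permutation test, unadjusted p = 0.0195). Myc, an E-box factor, averaged 594 ± 232 CPM (WT) and 671 ± 222 CPM (Pon2-/-; SD over 6 samples). Klf4 had 35 counts in WT replicate 2 only, and Wt1 had none in any sample.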

How the data were processed

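HSCs of 6 WT and 6 Pon2-/- mice were analysed, grouped by the genotype in the sample labels. The authors prepared Smart-seq2 libraries, trimmed reads (Trimmomatic 0.36), mapped them to GRCm38.p5 with STAR 2.5.3a and counted reads per gene of GENCODE M12. The deposited values are raw counts per gene and mouse, and the column was taken as the count without strand. Symbols, positions and exons came from GENCODE M21 on GRCm38, matched on the Ensembl identifier without its version, which gave 49326 of 49585 genes a name. Promoter sequences came from RefSeq (GRCm38.p6), motifs were searched on both strands, and protein sequences were not used here.

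Genotypes were compared across all genes in R 4.3.3 with edgeR 4.0.16 (genotype as the sole term, TMM, filterByExpr and the quasi-likelihood test of glmQLFTest) and Benjamini-Hochberg adjustment over the 11848 tested genes. Standard errors and 95% intervals of log2 fold changes were derived from the same fit and are approximate. Single genes were compared with exact permutation tests of log2 CPM (prior count 2) over all 924 assignments, with a smallest possible p of 0.00216, or with Fisher's exact test over samples. Coefficients of variation are the SD over the mean of CPM. Levels were divided by the kilobases of all exons of a gene. Another gene was taken as a copy at 90% identity or more over 50% of the transcript (minimap2), and none was found for the 10 genes. The procedure was tested on simulated data. The simulated spread was smaller than that of the data, and the simulated log2 changes were larger than those of the shelterin and H/ACA core genes. That test therefore does not cover changes of this size at this spread. Alternatives were DESeq2 1.42.0 and its size factors, limma 3.58.1 with voom and sample weights, other filters, the plain total of counts, a prior count of 0.5, the longest transcript, a replicate block and leaving out each sample.

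The genes and lists were chosen with earlier results of these data known. The text names the 10 genes, Pon2, Terc, the genes of the RNP and shelterin lists, other list genes with an unadjusted p below 0.05, genes within 200 kb of Tert and the 3 genes most like it. Other list genes named were chosen after their values were seen. A file of the authors' own comparison was not used here.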

Additional observations from a re-analysis of the deposited data

How the results depend on the processing

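The number of genes called was 24 and was 8 with no filter beyond 1 read, 304 with DESeq2 and 5 with a replicate block. Of the 10 genes, 0 were called except with DESeq2, which called 1, Tert. Replicate numbers were not shown to pair the samples, as same-numbered samples deviated together with correlations of 0.0009 to 0.043. With the replicate block, the Tert difference of -4.37 in mean log2 CPM had p = 0.0625 and the Pot1a difference of -1.08 had p = 0.0938 (exact permutation tests within pairs). When 1 sample was left out, the Tert difference was from -5.24 to -3.68 and the Pot1a difference was from -1.27 to -0.82. The direction turned for 3 genes. The Nhp2 log2 fold change ranged from -0.17 to 0.045 over samples left out and its difference in mean log2 CPM ranged from -0.20 to 0.073. The Terf2 log2 fold change was -0.075 with voom, and its difference ranged from -0.22 to 0.74 over samples left out. The Rtel1 log2 fold change was -1.23 with voom and -0.57 with the replicate block, and over samples left out it ranged from -0.18 to 0.69 and the difference ranged from -1.47 to 0.24. The causes were not tested. For Dkc1, Nop10, Terf1, Tinf2, Pot1a and Acd, no setting turned the direction or gave a call in the fit across genes.

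The Tert counts of WT HSCs rest mainly on 2 samples, and each sample holds 80 cells. A count of 0 limits the level in the library, not the number of cells that express a gene. Intervals of the shelterin genes other than Terf1 and of Rtel1 include a 2-fold difference.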
